A study of Rattus norvegicus with 3 samples.

Results

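The 10 circadian clock genes Arntl, Clock, Per1, Per2, Per3, Cry1, Cry2, Nr1d1, Dbp and Tef were followed in kidney RNA of rats given water or a hydrolysate of blue mussel protein. They were taken by name from the array's annotation. All 10 were represented, by 16 of the 30367 probes, out of 17933 named genes in all. Arntl is listed as Bmal1 in current RefSeq.

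The kidneys came from male spontaneously hypertensive rats (SHR) on a Wistar background, aged 8 to 10 weeks and weighing 280 to 330 g. The control group was given water, the low-dose group 10 mg/kg and the high-dose group 20 mg/kg of the hydrolysate (HBMP in the labels) per day, each by mouth in about 3 mL for 4 weeks. Each group held 10 rats, and RNA from 4 rats of a group was pooled and hybridised to 1 array, so there were 3 arrays in all. All groups were SHR, and no normotensive strain was analysed here. With no replicate of any group, no test was possible, the differences below describe these 3 pools, and precision is limited by the array number.

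The clock in most mammalian cells is a feedback loop of transcription. The activators BMAL1 (the product of Arntl) and CLOCK bind E-box sequences and switch on the Per and Cry genes, whose proteins then block the activators. A further loop runs through Nr1d1 and its relative Nr1d2, which encode REV-ERB repressors of Arntl, and through Dbp and Tef, transcription factors that bind D-box sequences. In rodent tissues, kidney included, Arntl mRNA reaches its high point roughly opposite in the day to Per2 and Dbp mRNA. Lights were on from hour 6 to hour 18 and doses were given at hour 9, per the labels. The sources used here do not give the hour at which kidneys were taken.

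Signals are background-subtracted intensities, scaled so that the 75th percentile of all probes was equal on the 3 arrays. Above background means that 50% or more of a probe's spots reached a signal-to-noise ratio of 3. This held for 15352 control, 15806 low-dose and 16617 high-dose probes. Differences are log2, treated minus control. Most members were printed on a single spot, so technical error was read from other probes: for each member, it is the SD of the log2 difference between matching spots of probes that were printed on 10 spots and had a signal within 2-fold of the member's. This error covers 1 array against another and holds nothing of the variation between rats. The labelled tissue had its defining markers, since all 10 proximal tubule, 6 thick ascending limb, 7 collecting duct and 5 podocyte markers were above background on every array. The low-column, low-row corner of the control array (42 columns by 20 rows) gave weak signal. There the median spot difference over 318 spots was 0.28 for high dose and 0.35 for low dose minus control.

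Of the 10 members, 6 stood above background on all 3 arrays: Arntl, Per2, Cry1, Cry2, Dbp and Tef. Per3 did so on both treated arrays, Clock and Per1 on the low-dose array alone, and Nr1d1 on the high-dose array alone. At the high dose, Arntl was higher than control and Per2 and Dbp were lower, while Cry1, Cry2 and Tef lay between 0.06 and 0.25 above it. At the low dose Per2 and Dbp were lower again and Arntl was near control. None of the 6 differed from control by 2-fold at either dose. Over all named genes above background on both arrays, 0.999% of 9905 did so at the high dose (0.848% upward and 0.151% downward) and 3.21% of 9743 at the low dose (2.47% and 0.739%).

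**Figure D1:**
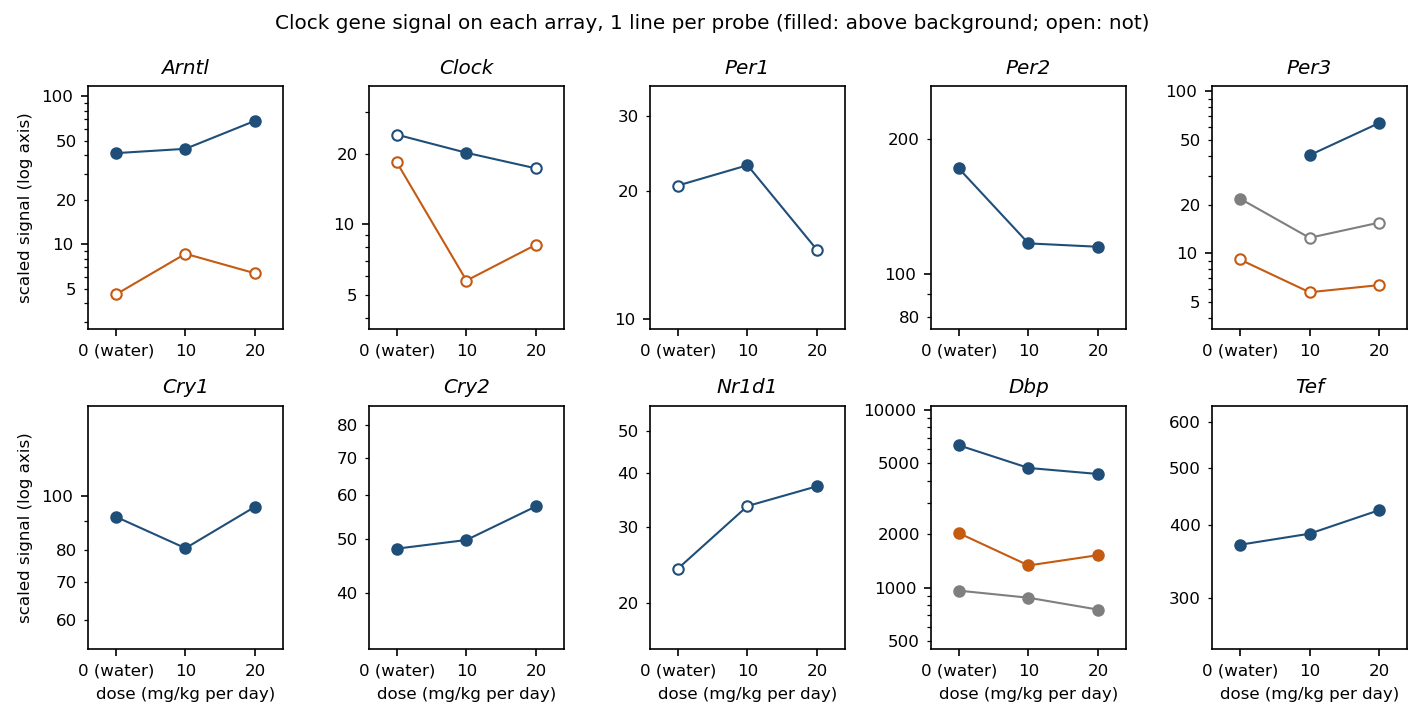
Scaled signal (log axis, range differs between panels) of each clock gene probe against dose in mg/kg per day, 1 line per probe and 1 array per dose; blue is the probe used for the gene, filled points are above background and open points are not. The Arntl probe used was highest on the high-dose array (68.2), all 3 Dbp probes and the Per2 probe were highest on the control array, and the Per3 probe in blue has no control value because that spot was non-uniform.

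Arntl encodes BMAL1, the activator without which the loop does not run. Its probe gave a signal of 41.3 in the water pool, 44.1 in the low-dose pool and 68.2 in the high-dose pool. The high-dose array thus stood apart, and the low-dose array was close to control. The log2 difference was 0.73 at the high dose (1.65-fold), against a technical SD of 0.19 over 351 probes, and 0.10 at the low dose, against 0.22. Arntl was the only 1 of the 6 members that passed 1.5-fold at the high dose, where 7.67% of all named genes did so in either direction and 3.59% upward. With normexp background correction and an offset of 50, which shrinks differences of dim probes, the high-dose difference was 0.27, and in the authors' deposited table it was 0.65. The low-dose difference lay between -0.03 and 0.23 over the alternatives. A second Arntl probe was not above background on any array, with signals of 4.58, 8.63 and 6.37 in the water, 10 mg/kg and 20 mg/kg pools.

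Clock encodes the partner of BMAL1. Its brighter probe gave 24.1, 20.1 and 17.3 in the water, 10 mg/kg and 20 mg/kg pools and was above background on the low-dose array only. The other probe gave 18.3, 5.76 and 8.19 and was above background on none. Both probes read highest on the control array, but the technical SD at this signal was 0.44 for the high dose and 0.48 for the low dose, next to log2 differences of -0.48 and -0.26 for the brighter probe. A difference of this size was not detectable at these signals.

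Per2, a repressor of the loop that also responds to hormonal signals, was printed on 10 spots per array and is among the best measured members. Its mean signal over spots was 172 ± 27.3 in the water pool, 117 ± 12.1 in the low-dose pool and 115 ± 25.3 in the high-dose pool (SD over 10 spots). The spots ranged from 116 to 198 in the water pool, from 102 to 134 in the low-dose pool and from 57.3 to 136 in the high-dose pool. Spot ranges of treated and control arrays overlapped, but at matching positions all 10 spots were lower on the high-dose array and all 10 were lower on the low-dose array than on control. The log2 difference of the means was -0.58 for 20 mg/kg and -0.56 for 10 mg/kg, or 0.668 and 0.679 of the control signal. At the high dose this lies just short of the 1.5-fold line, and the share of all named genes past it downward was 4.08%. Spot by spot the difference averaged -0.61 ± 0.18 and -0.55 ± 0.15 (SD over 10 spots). No Per2 spot lay in the weak corner. The difference kept its sign under each of the 12 alternatives. It ranged from -0.60 to -0.43 at the high dose and from -0.59 to -0.40 at the low dose. Not all of these alternatives could change it. With no filter, a stricter signal-to-noise ratio, a higher floor or the mean over probes, the Per2 values were identical to those reported.

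**Figure D2:**
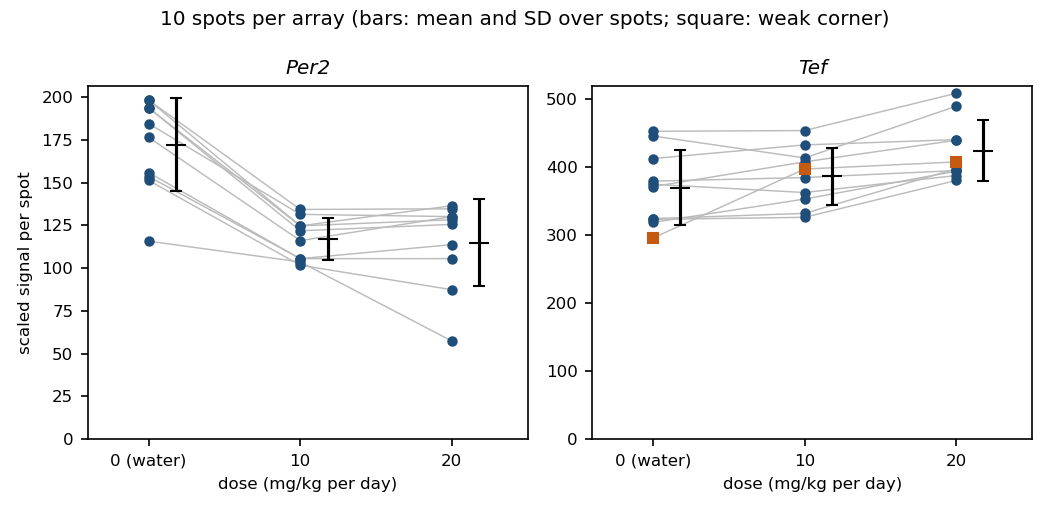
Scaled signal of each of the 10 spots of the Per2 and Tef probes against dose in mg/kg per day, with grey lines joining spots at the same array position and black bars giving the mean and SD over spots. All 10 Per2 spots are lower on each treated array than at the same position on the control array; the square in the Tef panel is the spot lying in the weak corner.

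The upstream stretches of Arntl and Per2 are shown because these genes were the measured members farthest above and farthest below control at the high dose. They are the 250 bases before the annotated transcription start, from RefSeq (GRCr8), 5′ to 3′ on the gene's own strand, with motif matches in capitals. In the Arntl stretch, chr1:176766078-176766327 on the plus strand, the capitals mark a ROR element core, the sequence bound by ROR activators and REV-ERB repressors. In the Per2 stretch, chr9:99496994-99497243 on the minus strand, they mark a D-box and then a variant E-box.
Arntl: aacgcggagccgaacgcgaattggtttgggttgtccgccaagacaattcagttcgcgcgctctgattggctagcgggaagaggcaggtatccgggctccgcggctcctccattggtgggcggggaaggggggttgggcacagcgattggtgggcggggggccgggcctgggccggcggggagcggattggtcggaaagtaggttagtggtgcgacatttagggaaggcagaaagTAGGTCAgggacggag
Per2: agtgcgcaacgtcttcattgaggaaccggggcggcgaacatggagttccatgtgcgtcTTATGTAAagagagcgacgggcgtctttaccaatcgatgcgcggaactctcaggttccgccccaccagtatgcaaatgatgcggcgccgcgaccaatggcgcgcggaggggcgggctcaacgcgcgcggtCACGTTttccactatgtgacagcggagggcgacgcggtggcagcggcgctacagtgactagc

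The motifs were searched on both strands from 250 bases before to 50 bases after the start, in the 11 windows that matched 9 of the members. No stretch was counted under more than 1 motif. The ROR element core TAGGTCA begins 16 bases before the Arntl start, and 2.63% of all 33469 windows in the table hold it. The Per2 window holds the D-box TTANGTAA 192 bases before the start and the variant E-box CACGTT 62 bases before it, which 2.24% and 4.83% of windows hold. CACGTT was also found in the windows of Cry2 (212 bases before the start) and Nr1d1 (174 bases). The E-box CACGTG, held by 6.42% of windows, was found in a second Nr1d1 window (191 bases) and in the Tef window (198 bases). The letters TGGGTCA (4.09% of windows) and TGACGTCA (1.83%, the cyclic AMP response element) were in no member window, and the Dbp, Per1, Per3 and Clock windows held none of the 6 motifs. A match is only a match of letters, and binding was not measured.

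Per1, a period gene that glucocorticoids and cyclic AMP switch on, was dim, with signals of 20.6, 23.0 and 14.6 in the water, 10 mg/kg and 20 mg/kg pools. It stood above background on the low-dose array alone. Before the correction below, it read 1.58-fold brighter there than on the high-dose array and 1.12-fold brighter than on control. Its single spot lies in that weak corner of the array, at column 32 and row 6. Neighbouring spots there read 0.44 higher for 20 mg/kg and 0.52 higher for 10 mg/kg than for water. After correction by these neighbours, a step chosen after the data were seen, the Per1 difference was -0.93 for 20 mg/kg and -0.34 for 10 mg/kg, against -0.50 and 0.16 before it. The technical SD at this signal was 0.56 and 0.48.

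Per3, a period gene not needed for the rhythm itself, was measured on both treated arrays, with a signal of 63.7 for 20 mg/kg and 40.3 for 10 mg/kg. The high dose was 1.58-fold above the low dose, a log2 difference of 0.66 with a technical SD of 0.17. On the control array the spot had a net mean of 152 but a net median of only 35, so its pixels were uneven, and it was left out. Its scaled net median there was 40.1, next to 38.4 and 63.7 on the low-dose and high-dose arrays. With the spot kept at its mean, the log2 difference of Per3 would be -1.45 for 20 mg/kg and -2.10 for 10 mg/kg, so 1 spot decides its sign. In the authors' deposited table it was 0.65 and 0.03. A different Per3 probe gave 21.8, 12.5 and 15.5 in the water, 10 mg/kg and 20 mg/kg pools and was above background on control alone. Its control signal read 1.41-fold above the high-dose and 1.75-fold above the low-dose array. The last probe read 9.17, 5.76 and 6.37, not above background.

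Cry1 and Cry2 encode the cryptochromes, the strongest repressors of CLOCK and BMAL1. Cry1 gave 91.7 in the water pool, 80.6 in the low-dose pool and 95.5 in the high-dose pool, a log2 difference of 0.06 for 20 mg/kg and -0.19 for 10 mg/kg. Cry2 gave 48.1, 49.9 and 57.3, a difference of 0.25 and 0.05. The technical SD was between 0.16 and 0.20 in these 4 comparisons, so the Cry1 difference at the low dose and the Cry2 difference at the high dose were slightly above the error of a single spot and the other two were within it. Under normexp the Cry2 difference at the high dose was 0.00.

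Nr1d1 encodes REV-ERBα, which represses Arntl. Its probe gave 24.1 in the water pool, 33.6 in the low-dose pool and 37.3 in the high-dose pool, and only the last was above background. It read 1.55-fold above control at the high dose, with a technical SD of 0.29 for a log2 difference of 0.63. Under normexp that difference was 0.11, so its size rests on how the background of a dim spot is treated.

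Dbp, whose product binds D-boxes and drives many daily output genes, was far above background on every array. Its 3 probes carry the same transcript accession. The first gave 6331, 4718 and 4362 in the water, 10 mg/kg and 20 mg/kg pools. The second gave 2025, 1331 and 1522, and the third gave 960.3, 876 and 751. All 3 probes read highest on the control array. The first and the third were lowest at the high dose and the second at the low dose, but the low-dose spot of the second was uneven. By its scaled net median the second read 1462 for 20 mg/kg and 1517 for 10 mg/kg, and in the authors' deposited table its log2 values were 10.61 and 10.63. Against control the log2 differences at the high dose were -0.54, -0.41 and -0.36, and at the low dose -0.42, -0.60 and -0.13. Technical SDs were between 0.10 and 0.13, so the third probe at the low dose lay near the error of a spot. Spots around the third probe read 0.16 and 0.17 higher on the high-dose and low-dose arrays than on control. Over the analysis as reported and its 12 alternatives, the Dbp difference ranged from -0.56 to -0.43 at the high dose. At the low dose it ranged from -0.43 to -0.36. The high-dose value of -0.43 is the mean over the 3 probes. The first probe alone came no nearer to control at the high dose than -0.46, under normexp.

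Tef encodes a close relative of the Dbp product and was printed on 10 spots. Its mean signal was 369.8 ± 54.7 in the water pool, 386 ± 42.5 in the low-dose pool and 424 ± 44.6 in the high-dose pool (SD over 10 spots). All 10 spots were higher on the high-dose array than at the same position on control, and 8 of 10 were higher on the low-dose array. The spot differences averaged 0.20 ± 0.13 for 20 mg/kg and 0.07 ± 0.15 for 10 mg/kg. One spot lies in the weak corner, and without it they were 0.18 ± 0.10 and 0.03 ± 0.08 (SD over 9 spots). In the authors' deposited table the low-dose difference was -0.12, so its direction is not settled. The products of Tef and Dbp bind the same sequence, yet at the high dose Tef lay above control and Dbp below it.

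Read as a group, the 6 members above background on all arrays had a median log2 difference of 0.13 at the high dose, 4 above and 2 below control, next to a median of -0.05 over all 9905 genes, 42.5% of which were above. At the low dose the median was -0.07, with 3 above and 3 below, next to -0.11 over 9743 genes, 34.6% of which were above. No member passed 1.5-fold at the low dose, where 11.4% of all named genes did (6.64% upward and 4.72% downward). With 6 genes, 1 gene is the smallest share above 0, so neither count sets the members apart from other genes. Clock, Per1, Per3 and Nr1d1 are in neither median. Both comparisons share the control array, so a reading that is off on that array enters both.

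**Figure D3:**
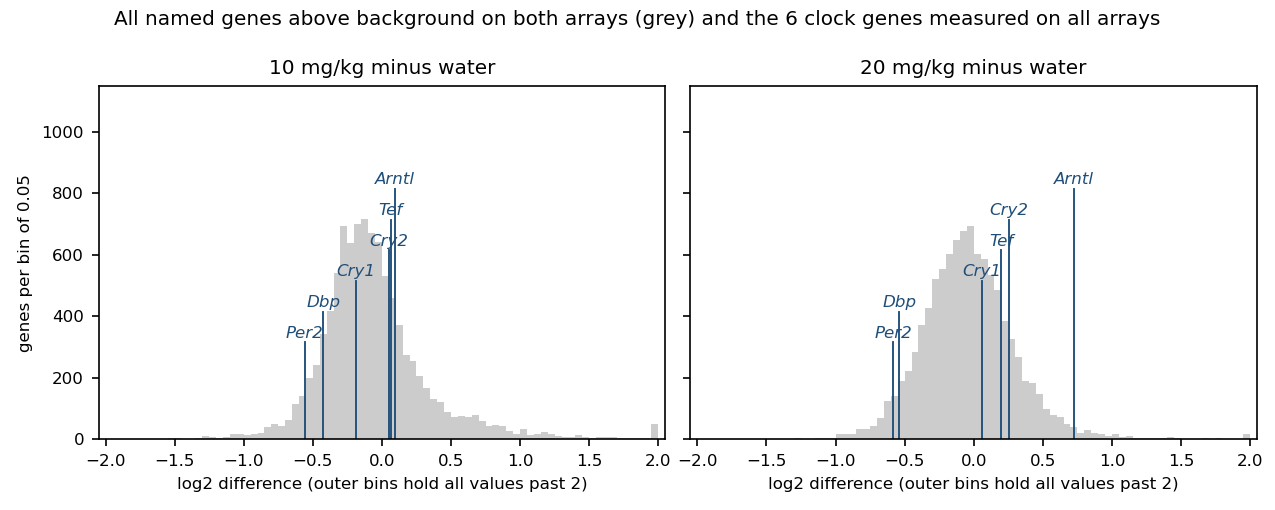
Number of named genes per bin of 0.05 in log2 difference (grey), for low dose minus control on the left and high dose minus control on the right, among genes above background on both arrays; vertical lines mark the 6 clock genes above background on all 3 arrays, at heights set for legibility. At the high dose Arntl lies in the upper tail at 0.73, and Per2 and Dbp lie low at -0.58 and -0.54.

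The high dose was also set against the low dose, which does not use the control array. Of 7 members above background on both, Per3 at 0.66 and Arntl at 0.63 (technical SD 0.17 each) passed 1.5-fold, both upward, next to 4.04% of 10143 named genes upward, 5.52% downward and 9.56% in either direction. No member passed 2-fold, which 0.463% of genes did upward, 1.49% downward and 1.95% either way. Of all genes past 1.5-fold, 410 were higher and 560 lower, and under quantile normalization 279 were higher and 644 lower. Arntl stood short of 1.5-fold under quantile normalization (0.54), with the net median of pixels (0.52), in the authors' deposited table (0.42) and under normexp (0.29). Per3 stood at 0.31 under normexp and was not measured under quantile normalization. Cry1 at 0.25, Cry2 at 0.20 and Tef at 0.13 were also higher at the high dose, while Per2 at -0.03 and Dbp at -0.11 were nearly level between the doses. Of the 7 members 5 were higher, as were 54.8% of all genes, and their median was 0.20, next to 0.04 over all genes.

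Other genes of the clock were described from a list of 20 regulators, of which 18 had a probe and 11 were above background on all 3 arrays. Their median log2 difference was 0.00 for 20 mg/kg and -0.12 for 10 mg/kg, next to -0.05 and -0.11 over all genes. Nr1d2, which encodes REV-ERBβ, was the 1 regulator of 11 past 1.5-fold at either dose, and it was lower at both. Over all named genes, 7.67% (20 mg/kg) and 11.4% (10 mg/kg) were past it, 4.08% and 4.72% downward, so 1 of 11 is near the background. Its single spot gave 49.3 in the water pool, 26.9 in the low-dose pool and 25.5 in the high-dose pool, so both treated arrays lay well below control. The log2 difference was -0.95 at the high dose (technical SD 0.25) and -0.88 at the low dose (0.24). Under normexp it was -0.45 and -0.35, and in the authors' deposited table -1.17 and -0.79.

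Npas2, which can take the place of Clock, gave 108, 77.7 and 114 in the water, 10 mg/kg and 20 mg/kg pools, a log2 difference of 0.08 for 20 mg/kg and -0.47 for 10 mg/kg. Arntl2, a relative of Arntl, gave 55.0, 38.4 and 59.1, a difference of 0.10 and -0.52. Both were thus lowest on the low-dose array, with technical SDs of 0.16 to 0.21. The size of the low-dose difference depended on the processing. Over the analysis as reported and the alternatives where each was measured, it ranged from -0.52 to -0.29 for Npas2. For Arntl2 it ranged from -0.62 to -0.28. A second Npas2 probe read 16.04, 27.8 and 15.5 and was above background on the low-dose array alone, so the Npas2 probes disagree. Nfil3, a repressor that binds D-boxes, gave 13.8, 22.1 and 23.7. It was not above background on control and read 1.72-fold above it for 20 mg/kg and 1.604-fold for 10 mg/kg. Under normexp, however, the differences were 0.00 and 0.05.

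The kinases and the degradation factor described here, which set the stability of clock proteins, had differences between -0.34 and 0.48 in the probes used. Csnk1d, a kinase that marks PER proteins, stood at -0.34 for 20 mg/kg and -0.12 for 10 mg/kg. A dimmer Csnk1d probe gave 0.07 and -0.36. Its relative Csnk1e stood at 0.13 and 0.48, in a dim probe with a technical SD of 0.31 and 0.28, and its other probes were not above background on control. Btrc, part of the ubiquitin ligase that marks PER proteins for degradation, stood at 0.00 and 0.05, and the kinase Gsk3b at -0.19 and -0.08. Bhlhe40, which represses at E-boxes, stood at 0.15 and -0.06, and Cipc, an inhibitor of CLOCK, at -0.20 and -0.14. A dimmer Cipc probe, above background on all 3 arrays, gave 0.02 and -0.38, so the Cipc probes disagree at the high dose. Timeless stood at -0.01 and 0.07, without being above background on control. Id2, an inhibitor of helix-loop-helix factors, stood at 0.30 and -0.16. Rorb, Bhlhe41, Hlf and Ciart were above background on no array, and Rora only at the high dose.

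**Figure D4:**
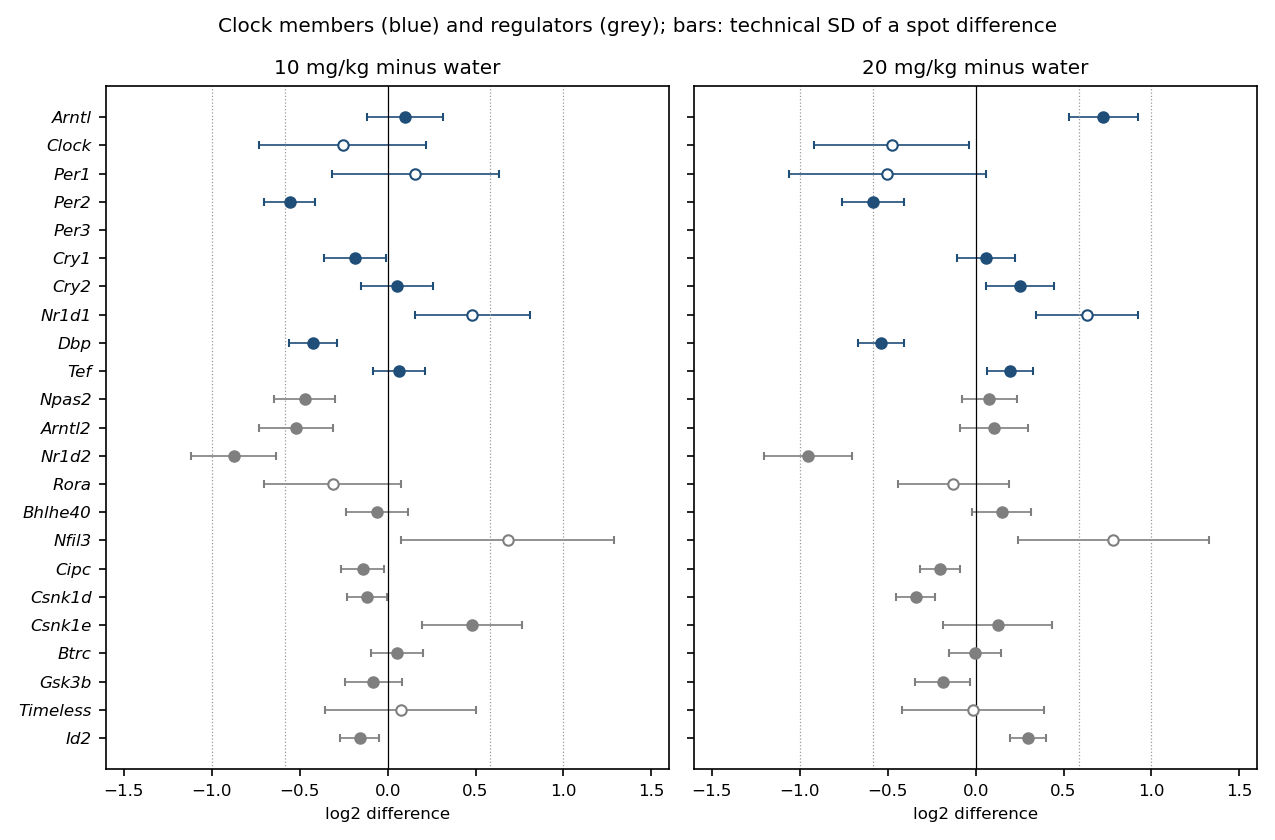
Log2 difference from control of clock members (blue) and the clock regulators described (grey) above background on at least 1 array, for the low dose on the left and the high dose on the right; bars are the technical SD of a spot difference (SD over own spots for Per2 and Tef), open points were not above background on both arrays, and dotted lines mark 1.5-fold and 2-fold. Per2, Dbp and Nr1d2 lie below control in both panels, and Arntl lies above it in the high-dose panel; Per3 has no control value.

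Of 14 genes listed as targets or outputs of the clock in kidney and other tissues, 13 were above background on every array. Their median difference was -0.08 for 20 mg/kg and -0.15 for 10 mg/kg, next to -0.05 and -0.11 over all genes. At the high dose 3 were at least 1.5-fold higher and 1 lower, where 3.59% and 4.08% of all named genes were. At the low dose 2 were higher and 1 lower, where 6.64% and 4.72% were. Klf10, a transcription factor known as a clock target in mouse liver, gave 104, 245 and 231 in the water, 10 mg/kg and 20 mg/kg pools, a difference of 1.15 for 20 mg/kg and 1.23 for 10 mg/kg. Klf10 is also on a list of 8 immediate early genes, of which 7 were above background on all arrays. Of those 7, 6 were higher than control at each dose, where 42.5% (20 mg/kg) and 34.6% (10 mg/kg) of all named genes were. The 7 had medians of 0.60 and 0.53. The low-dose median is the value of Jun, whose single spot lies in the weak corner. Jun stood at 0.60 and 0.53, and neighbouring spots there read 0.35 and 0.44 higher than for water. Atf3 on that list stood at 0.92 and 1.37. Sgk1, the kinase through which aldosterone and glucocorticoids raise sodium uptake, gave 982, 912 and 497. It was lower at the high dose (-0.98), while the low-dose difference (-0.11) was about equal to the technical SD of 0.11. Slc9a3, the sodium-hydrogen exchanger of the proximal tubule, gave 102, 56.6 and 87.3, a difference of -0.22 and -0.85. Its other probe, above background at the high dose only, read 17.2, 13.4 and 26.4. Avpr2, the vasopressin receptor of the collecting duct, gave 125, 156 and 198, a difference of 0.67 and 0.32. Aqp2, the water channel it controls, gave 12251, 30768 and 18708, a difference of 0.61 and 1.33. Both are also on the list of 7 collecting duct markers, whose medians were 0.60 and 0.32, with 4 higher and 3 lower at each dose. Among the others Fxyd4 stood at 0.94 and 1.33 and Aqp3 at 0.60 and 0.84. The 3 lower ones were Hsd11b2 (-0.52 and -0.45), Scnn1g (-0.37 and -0.28) and Scnn1b (-0.11 and -0.26).

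The tissue makeup read from the pools was not level either, and in whole-kidney RNA fewer cells of a type and less RNA per cell cannot be told apart. Of all named genes, 42.5% (20 mg/kg) and 34.6% (10 mg/kg) were higher than control, so a lower reading was the commoner direction for any gene. The counts below are to be read next to these shares. All 10 proximal tubule markers were lower than control at both doses, with summed signals of 159015, 126109 and 116410 in the water, 10 mg/kg and 20 mg/kg pools. Their median log2 difference was -0.53 for 20 mg/kg and -0.40 for 10 mg/kg, next to -0.05 and -0.11 over all genes. The summed signal of 8 adipocyte markers was 289.9, 3137 and 2241, with 3, 6 and 6 of them above background, and that of 8 macrophage markers 2365, 5153 and 2417. Plin1 and Lep were above background on no array. Of 5 brown fat markers 4 had a probe, and these summed to 612, 6772 and 2254, with 3 above background on each array. The 6 thick ascending limb markers summed to 45618, 33159 and 38935, with Umod making up most of the sum (37142, 28170 and 29571). Of these 6, 4 were higher than control at the high dose, and 5 were lower at the low dose. The 7 collecting duct markers summed to 21685, 42287 and 28667, with Aqp2 making up most of the sum (12251, 30768 and 18708). Of these 7, 4 were higher and 3 lower than control at each dose. The 5 podocyte markers had a median log2 difference of -0.31 for 20 mg/kg and -0.43 for 10 mg/kg. Of these 5, 4 were lower than control and 1 higher at the high dose, and all 5 were lower at the low dose. Glucocorticoid-responsive genes, a list of 8 that holds Per1, Sgk1 and Klf9, summed to 10044, 8589 and 5367, with Errfi1 making up most of the sum (6765, 5239 and 3338). The 5 that were above background on all arrays were all lower at the high dose. At the low dose, 3 of them were lower than control and 2 higher. Dusp1, also on the list, was above background at the high dose only and was at least 1.39-fold above control there. The part of these shifts in the clock gene differences was not tested.

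By the pattern over the 3 arrays, likeness was measured as the distance between genes in the log2 differences at both doses, for members at least 1.5-fold from control among 9652 genes above background throughout. Arntl alone qualified. Its nearest genes were Fbxo6 (distance 0.05), Ccnc (0.08) and Pycr3 (0.08). Fbxo6 gave 59.6, 65.2 and 96.4 in the water, 10 mg/kg and 20 mg/kg pools. The distances are a description of 3 arrays.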

How the data were processed

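The authors hybridised Cy3-labelled cRNA of 3 RNA pools to an Agilent rat array, per the labels and the series' design text. The deposited scanner files hold each spot's intensity at 532 nm with a background of 39 (control, high dose) or 40 (low dose) subtracted, read by GenePix Pro 6.1.0.4, per the file headers; Agilent Feature Extraction is listed in the submitters' processing notes. Signal-to-noise ratios and flags are deposited as a score, and saturated pixels as a percent, which was 0 for every single-spot member probe. The authors also deposited normalized log2 values, by a method not given in the sources used here. The slide was shared by all arrays (1 slide). The high-dose header names a mouse design, but its spots carry the annotation of the control array, and log2 signals correlated at 0.989 across 14554 probes, which are not independent replicates.

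Control spots, bright spots the software did not find (6 or fewer per array) and spots whose pixel mean and median were more than 1.5-fold apart (135 control, 131 low-dose and 70 high-dose spots) were left out. Spot means were averaged per probe, scaled to a common 75th percentile (factors 1.15 for control, 0.959 for low dose and 0.910 for high dose), floored at 1 and put on a log2 scale. Names came from RefSeq (GRCr8) by accession for 18355 probes, and otherwise by symbol (2760), synonym (431), the file's own symbol (1776) or its description (3). Among a gene's probes, the one detected on most arrays, and among equals the brightest, stood for the gene. Some folds are against an array where the probe was not above background. There the dim side is the larger of its measured signal and the lowest above-background signal of that array. Such a fold makes no allowance for spot error. The steps were tested on simulated data, made from the control array with known 2-fold changes in genes above background. Signal-to-noise ratios and flags were left as scanned there, so the filter on dim probes was not tested. Python 3.11.15, pandas 2.3.3 and limma 3.58.1 (normexp) were used.

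The members, gene lists and size rule were chosen with earlier results of these data known. All members were named whatever their value, as could be regulators, of which 1 counted in the medians is not reported here by name. Output genes were named when at least 1.5-fold from control at either dose, as could be markers. Klf9, Dusp1, Plin1, Lep, Umod, Hsd11b2, Scnn1g and Scnn1b were named outside this rule, after their values were seen. The design had been written for the scanner's net signal and was kept. Alternatives were quantile normalization, scaling to the median of probes above background, normexp, the net median of pixels, keeping non-uniform spots, leaving out the weak corner, the mean over a gene's probes, no filter, a signal-to-noise ratio of 10, a floor of 8 and the authors' values. A correction by neighbouring spots was added after the data were seen.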

Additional observations from a re-analysis of the deposited data

How the results depend on the processing

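No paired analysis was possible because each group is 1 array. The limits are the single array per group, the dim signals of Clock, Per1, Per3 and Nr1d1, and single spots for most members. The count of members at least 1.5-fold from control at the high dose, 1 of 6, was 2 with scaling to the median of probes above background and with the net median (Per2 crossing the line), 2 of 7 with non-uniform spots kept (Per3 added), 2 of 10 with no filter, and 0 under normexp and at a signal-to-noise ratio of 10 (3 members measured). At the low dose, 0 of 6 became 1 with non-uniform spots kept, with no filter and with the authors' values. With non-uniform spots kept 1 member, Per3, was past 2-fold at each dose, in place of 0. Between the doses 2 of 7 became 1 with the net median and with the authors' values, and 0 under quantile normalization (6 members, Per3 not measured), normexp (7) and the signal-to-noise ratio of 10 (4). The median over members at the high dose, 0.13, was -0.0053 under normexp with the same 6 members, -0.21 with no filter and -0.54 at the signal-to-noise ratio of 10, and at the low dose, -0.07, it was -0.42 at that ratio, where Per2, Dbp and Tef remain. Over all genes, those at least 1.5-fold higher and lower were 158 and 107 under normexp, 2116 and 2068 with no filter and 161 and 288 at the ratio of 10, in place of 356 and 404, at the high dose. At the low dose they were 360 and 130, 1938 and 3124, and 348 and 230, in place of 647 and 460. Between the doses they were 107 and 290, 3073 and 1589, and 135 and 354, in place of 410 and 560. Of 218 values of single members under the alternatives, 207 moved by less than the technical SD and 11 by more. Many of the 207 could not move. The higher floor and the ratio of 10 left every measured member's value as it was. So did no filter except for Per3, and the mean over probes except for Dbp. Clock, Per1 and Nr1d1, and Per3 against control, were not measured in the analysis as reported and are not among the 218. Of the values past 1.5-fold, 0 changed sign. Small differences did change sign. Under normexp these were Cry1 at the high dose (-0.02), Arntl at the low dose (-0.03) and Cry2 between the doses (-0.0015). In the authors' values they were Tef at the low dose (-0.12) and Per2 between the doses (0.02). The cause of these changes was not tested.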
